A study of Homo sapiens with 6 samples.

Results

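The genes described here are the replication-dependent histone genes and the linker histone genes, taken by their symbols from the annotation of the array. A member had a symbol of the clustered H1, H2A, H2B, H3 or H4 families, and the linker histones outside the clusters were added. The rule found 67 genes with a probe set of their own among 18239 genes tested. They were read by 114 probe sets, and 8 further probe sets were annotated to several near-identical histone genes at once, which gave 122 histone probe sets of 49293. Of the 67 genes, 64 code for proteins, 2 are pseudogenes (H1-9P and H2BC20P) and 1 is the antisense RNA H1-10-AS1.

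The study measured RNA of LNCaP cells, an androgen-responsive human prostate adenocarcinoma line, on Affymetrix arrays. One group of 3 arrays came from untreated control cells and the other group of 3 from cells given 40 µM urolithin A, a metabolite that gut bacteria make from plant ellagitannins, for 24 hours. Both groups grew in F12 medium with fetal bovine serum, and the sample titles call the controls untreated where the treatment protocol names saline. Nothing in the labels states that replicate arrays stem from independent cultures, and the p-values then reflect only array-to-array spread, which may be technical.

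Replication-dependent histones package newly made DNA, and their genes lie in clusters with many near-identical copies. Their mRNAs are made mainly in S phase, end in a stem-loop instead of a poly(A) tail, and are bound there by SLBP. Cyclin E and CDK2 act on NPAT, the coactivator of these genes, at the entry into S phase. The core histones H2A, H2B, H3 and H4 form the nucleosome, and the linker histone H1 sits where DNA enters and leaves it. Some histone genes also give polyadenylated transcripts, mostly in cells that have left the cycle. How the labelled cRNA was primed is not given in the sources used here, so the share of stem-loop and polyadenylated mRNA in each value cannot be told.

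The deposited values are log2 values from which the control median of each probe set had been subtracted. A value of 0 is therefore the middle control array of that gene, levels of different genes cannot be compared, and low genes cannot be told from high ones. For the same reason the presence of prostate markers could only be followed as a change. A gene's value is the mean of its probe sets, and a change is the urolithin A mean minus the control mean on the log2 scale. A gene passed the test at an adjusted p under 0.05 (limma, Benjamini-Hochberg adjustment over all 18239 genes). Bulk arrays cannot tell fewer cells in S phase from less histone mRNA in each cell.

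H2A and H2B genes mostly lie head to head and share the DNA between their start sites. The stretches of 3 such pairs and of H2BC18 are shown here. All are from RefSeq on GRCh38.p14. The first 3 run from start site to start site on the plus strand, with the H2B gene on the left and pointing left and the H2A gene on the right. The fourth is the 250 bases before the start of H2BC18, on that gene's own minus strand. Capitals mark the octamer ATTTGCAT or its complement ATGCAAAT, the letters that POU2F1 (Oct-1) is known to bind in H2B promoters, and the letters TATAAA or their complement TTTATA.
H2BC21 and H2AC20, chr1:149886683-149886917, plus strand: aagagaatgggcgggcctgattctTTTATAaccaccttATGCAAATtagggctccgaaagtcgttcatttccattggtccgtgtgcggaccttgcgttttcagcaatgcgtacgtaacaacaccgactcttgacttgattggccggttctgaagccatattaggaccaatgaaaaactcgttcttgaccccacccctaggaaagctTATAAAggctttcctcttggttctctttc
H2BC4 and H2AC6, chr6:26123927-26124171, plus strand: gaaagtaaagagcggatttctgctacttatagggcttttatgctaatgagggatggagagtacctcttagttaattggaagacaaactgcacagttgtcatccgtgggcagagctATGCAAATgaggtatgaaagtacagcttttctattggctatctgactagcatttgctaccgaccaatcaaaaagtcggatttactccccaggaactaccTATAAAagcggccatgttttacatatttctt
H2BC8 and H2AC8, chr6:26216689-26216920, plus strand: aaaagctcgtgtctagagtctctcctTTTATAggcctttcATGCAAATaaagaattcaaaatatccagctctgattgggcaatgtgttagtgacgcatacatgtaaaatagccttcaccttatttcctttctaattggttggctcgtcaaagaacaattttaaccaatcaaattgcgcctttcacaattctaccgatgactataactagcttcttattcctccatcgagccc
H2BC18, chr1:149812371-149812620, minus strand: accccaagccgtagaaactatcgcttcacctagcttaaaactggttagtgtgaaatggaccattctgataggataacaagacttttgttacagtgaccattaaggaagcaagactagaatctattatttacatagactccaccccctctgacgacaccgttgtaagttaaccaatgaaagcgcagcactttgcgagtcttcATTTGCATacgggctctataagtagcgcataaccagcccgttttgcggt

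H2BC21 had the histone probe set with the highest change, and H2AC20 was the lowest histone gene. H2BC4 with H2AC6 is a second pair with changes of opposite sign, and H2BC8 with H2AC8 is a pair in which both changes were above 0. None of H2BC4, H2AC6, H2BC8 and H2AC8 passed, and the groups overlapped in all of them. H2BC11 and H2AC11, also of opposite sign and slightly farther apart (0.4705 against 0.464), are not shown. The octamer stood 38 bases from the H2BC21 start and 189 bases from the H2AC20 start, and 40 and 184 bases from the starts of H2BC8 and H2AC8. In the H2BC4 and H2AC6 stretch it was near the middle, 115 and 122 bases from the starts.

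After 24 hours of urolithin A, 1 of the 64 protein-coding histone genes passed the test, H2AC20, which fell by 0.50 on the log2 scale (SE 0.092, n = 3 against 3). None rose, and 63 did not pass. Among all genes, 10.2% passed, with 4.85% higher and 5.31% lower. At an unadjusted p under 0.05 there were 4 histone genes with higher and 7 with lower values, against 12.5% higher and 11.5% lower over all genes. The changes ran from -0.50 to 0.41 with a median of -0.019 (0.015 with the arrays scaled to the hybridization controls), against 0.010 over all genes, and 29 lay above 0 and 35 below.

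**Figure D1:**
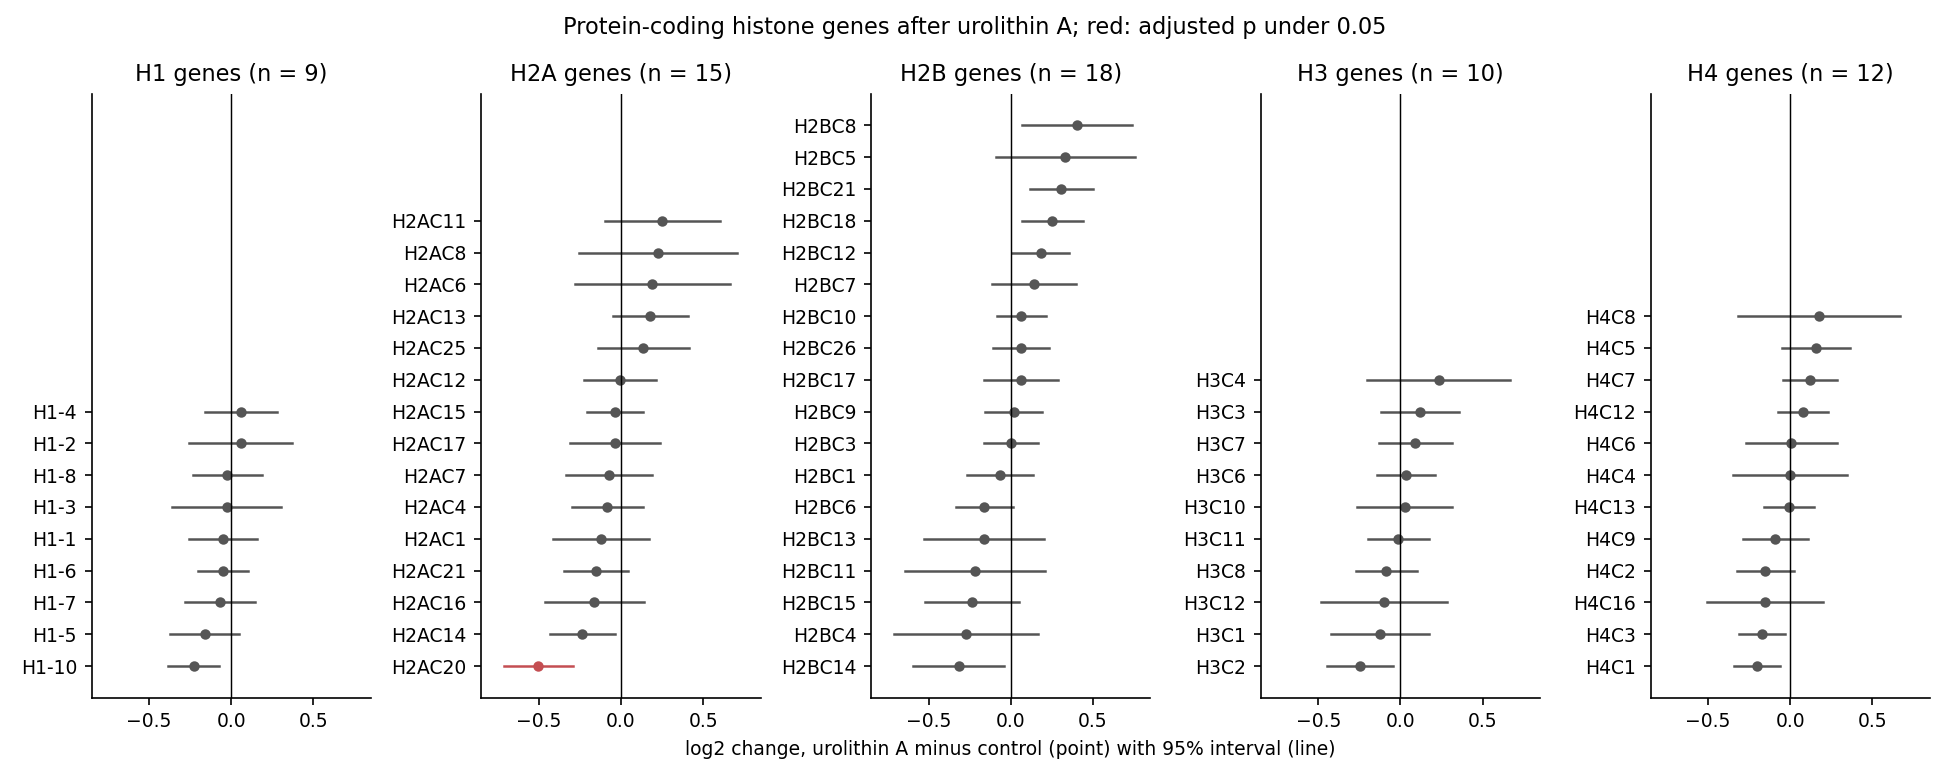
Change of each protein-coding histone gene (points, urolithin A minus control, log2 scale) with its 95% confidence interval (lines, limma, n = 3 arrays per group), in one panel per family, with genes past the threshold in red. H2AC20 is the single red gene, with an interval from -0.71 to -0.29, and the medians of the 5 families lie between -0.049 and 0.040.

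The changes of the histone genes were small in most cases. Their median size was 0.124, or 1.09-fold, against 0.0998, or 1.07-fold, over all genes. For 53 of the 64 genes the 95% confidence interval lay wholly within a 1.5-fold change in either direction, so a change of that size is outside the interval. The same held for 16610 of all 18239 genes. These intervals describe array values, and low genes cannot be told from high ones here. They therefore do not exclude a larger change in the mRNA itself. The arrays of the 2 groups did not overlap in 10 histone genes, 4 higher and 6 lower, and overlapped in 54. Over all genes the groups stood apart in 29.3%, with 15.6% higher and 13.7% lower. The median standard error was 0.0959 for the histone genes and 0.0812 for all genes.

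None of the 9 protein-coding H1 genes passed. These linker histones had a median change of -0.049, and all 9 intervals lay within a 1.5-fold change. H1-10, a linker histone whose gene lies outside the clusters and gives polyadenylated mRNA, read 0.04, -0.05 and 0.04 in the control arrays and -0.26, -0.13 and -0.26 with urolithin A. Every treated array was below every control array, but the change of -0.23 (SE 0.069) did not pass (adjusted p = 0.0747, limma). Its pair of probe sets gave -0.22 and -0.23. The antisense RNA H1-10-AS1 read 0.00, -0.15 and 0.51 in the controls and -0.18, -0.43 and -0.26 after treatment, a change of -0.41 with an adjusted p of 0.150 (limma), and of -0.22 without control 3.

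The replication-dependent somatic linker genes H1-1 to H1-5 had a median change of -0.028, and the groups overlapped in all 5. H1-4 and H1-2 were both at 0.06, H1-3 at -0.03 and H1-1 at -0.05. H1-5 read 0.12, 0.00 and -0.09 in the controls and -0.07, -0.32 and -0.07 with urolithin A, a change of -0.16 (adjusted p = 0.337, limma). The second treated array lay below the controls, and the other 2 lay within the control range. H1-6, H1-7 and H1-8, which are known from germ cells, ranged from -0.07 to -0.02.

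H2AC20 was the lowest of the 15 H2A genes. It read 0.01, 0.14 and -0.08 in the control arrays and -0.38, -0.42 and -0.64 with urolithin A. The groups were apart by more than their spread, and the gene was 1.42-fold lower (adjusted p = 0.0119, limma). Both of its probe sets were lower, one at -0.53, which passed in the fit over probe sets (adjusted p = 0.0091, limma), and one with the ending _x_at at -0.48, which did not (adjusted p = 0.066, limma). That ending marks probes that may bind other transcripts. H2AC20 passed in each of 6 fits that left out 1 array, with adjusted p up to 0.0463 (limma). The call was lost with the arrays scaled to the hybridization controls (adjusted p = 0.0930) and with no moderation of the variance (adjusted p = 0.0994).

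The other 14 H2A genes did not pass, and the H2A median was -0.035. H2AC14 read 0.03, 0.00 and -0.08 in the controls against -0.18, -0.42 and -0.15, so the groups stood apart, with a change of -0.23 (adjusted p = 0.133, limma). H2AC11, H2AC8 and H2AC6 had the highest changes, at 0.25, 0.23 and 0.19. The groups overlapped in all 3, and in H2AC11 and H2AC8 the third array was the lowest of each group. H2AC6 read -0.03, 0.41 and 0.00 in the controls and 0.31, 0.76 and -0.12 with urolithin A (adjusted p = 0.649, limma).

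None of the 18 H2B genes passed. Their median change was 0.040, and 11 were above 0 and 7 below. In 4 of them, H2BC21, H2BC18, H2BC12 and H2BC10, every treated array lay above every control array, and in none did every treated array lie below. The shares over all genes were 15.6% above and 13.7% below. H2BC12 changed by 0.18 (adjusted p = 0.185, limma) and H2BC10 by 0.06 (adjusted p = 0.618, limma). The probe sets of H2BC10 disagreed in sign, at 0.20, -0.06 and 0.05. H2BC21, which also makes polyadenylated mRNA, read 0.12, 0.03 and -0.18 in the controls and 0.29, 0.30 and 0.30 with urolithin A. The treated arrays were almost equal while the controls were spread, and the change of 0.31 (SE 0.085) missed the threshold at an adjusted p of 0.0546 (limma). Of the 6 fits that left out an array, it passed in the one without control 1 (adjusted p = 0.0475, limma).

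H2BC8 had the highest change of the histone genes. It read 0.00, 0.12 and -0.31 in the controls and 0.46, 0.52 and 0.05 with urolithin A. The third array was the lowest of each group, and in the treated group that array lay between the controls, so the groups overlapped. The change was 0.41 (SE 0.15, adjusted p = 0.129, limma), and without the third urolithin A array it was 0.55 and passed (adjusted p = 0.0414, limma). Both H2BC8 probe sets, at 0.44 and 0.37, have endings of probes that may bind other transcripts (_s_at and _x_at). The change can therefore not be given to H2BC8 alone.

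H2BC5 followed the same order of arrays, with 0.00, 0.28 and -0.26 in the controls and 0.47, 0.62 and -0.06 after treatment. Its change of 0.33 (SE 0.19) did not pass (adjusted p = 0.327, limma). H2BC14 had the lowest H2B change, with 0.21, -0.14 and 0.00 against -0.46, -0.08 and -0.34. One treated array lay above a control array, and the change of -0.32 (SE 0.12) did not pass (adjusted p = 0.145, limma). H2BC18 stood apart between the groups, at -0.03, 0.06 and 0.08 in the controls and 0.40, 0.32 and 0.15 with urolithin A, with a change of 0.25 (SE 0.082, adjusted p = 0.0952, limma).

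**Figure D2:**
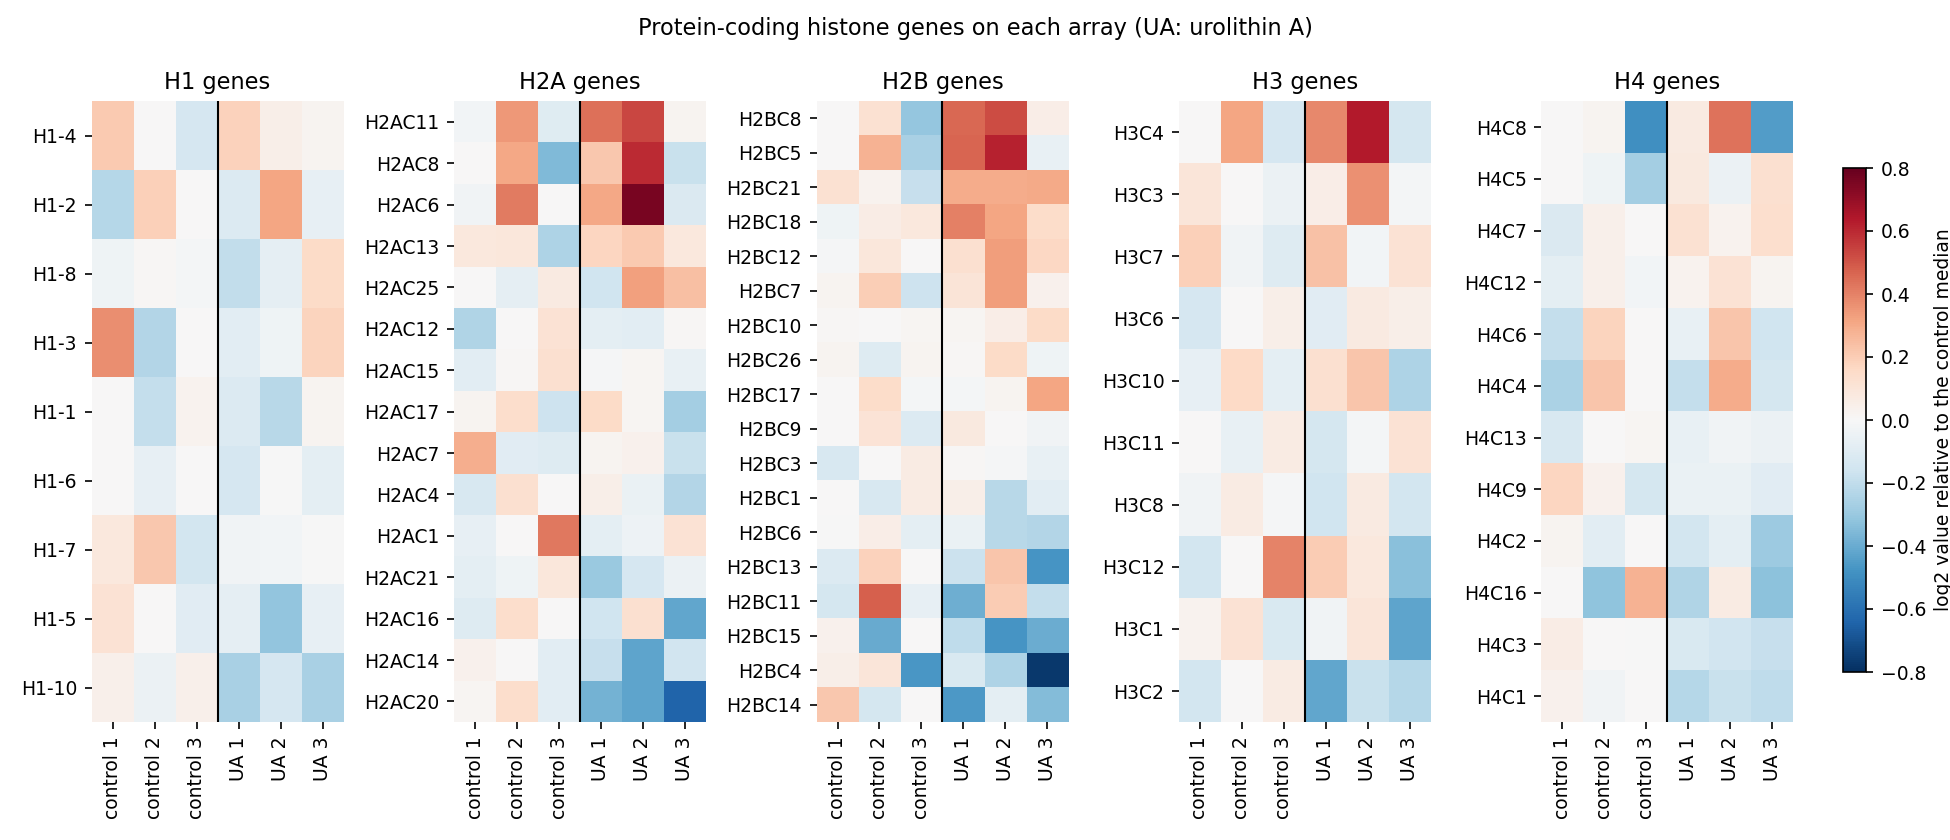
Heat map of the 64 protein-coding histone genes on each array, one panel per family, with 3 control columns left and 3 urolithin A columns right of the black line; red is above and blue below the control median of the gene, on a log2 scale. H2AC20 is blue on all 3 treated arrays, and H2BC8 and H2BC5 are red on treated arrays 1 and 2 and near 0 on array 3.

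None of the 10 H3 genes passed, and their median change was 0.0065. H3C2 read -0.15, 0.00 and 0.06 in the controls and -0.42, -0.18 and -0.23 with urolithin A, so the groups did not overlap, but the change of -0.25 had an adjusted p of 0.126 (limma). H3C4 was the highest at 0.23, with 0.00, 0.32 and -0.13 against 0.38, 0.63 and -0.14. Array 3 was again the lowest of each group, and its values in both groups were nearly equal.

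None of the 12 H4 genes passed, and their median was -0.0038. H4C1 and H4C3 were lower in every treated array than in any control array. H4C1 read 0.03, -0.03 and 0.00 in the controls and -0.23, -0.18 and -0.20 with urolithin A, a change of -0.20 (SE 0.061, adjusted p = 0.0751, limma). The spread of H4C1 within each group was small beside its change, and with no moderation of the variance it passed (adjusted p = 0.0426). It passed in 0 of the 6 fits that left out 1 array (adjusted p from 0.138 to 0.187, limma). With the arrays scaled to the hybridization controls its adjusted p was 0.965 (limma). H4C3 changed by -0.17 (adjusted p = 0.127, limma). At the other end H4C8 read 0.00, 0.02 and -0.49 against 0.07, 0.43 and -0.44, with a change of 0.18 and wide overlap.

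Single probe sets gave a more divided account than the gene means. Of the 122 histone probe sets, 3 passed (2.46%), against 8.41% of all probe sets, and the genes of all 3 lie on chromosome 1. With no moderation of the variance 0 passed, and without the third urolithin A array 7 did. Besides the probe set of H2AC20, these were one of H2BC21 and one of H2BC18. The H2BC21 probe set, with the ending _a_at that marks transcripts of one gene, read 0.00, 0.06 and -0.52 in the controls and 0.90, 0.91 and 0.42 with urolithin A. It was 1.86-fold higher (0.90, SE 0.18, adjusted p = 0.0197, limma), and it did not pass without the first (adjusted p = 0.0726) or the second urolithin A array (adjusted p = 0.0692). The other H2BC21 probe sets stood at 0.00 and 0.03, so a single probe set carried the gene's change.

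The H2BC18 probe set, with the ending _s_at, read -0.18, 0.00 and 0.15 in the controls and 0.89, 0.78 and 0.47 after treatment. It rose by 0.72 (SE 0.13, adjusted p = 0.0131, limma), and the other 3 probe sets of H2BC18 lay at 0.25, 0.04 and -0.008, none past the threshold. The ending marks probes shared by several transcripts. Leaving out all probe sets that end in _s_at or _x_at raised the H2BC21 change to 0.45, which then passed (adjusted p = 0.0385, limma), and lowered that of H2BC18 to 0.15 (adjusted p = 0.371, limma). As the median of its probe sets H2BC21 was at 0.11 (adjusted p = 0.425, limma).

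**Figure D3:**
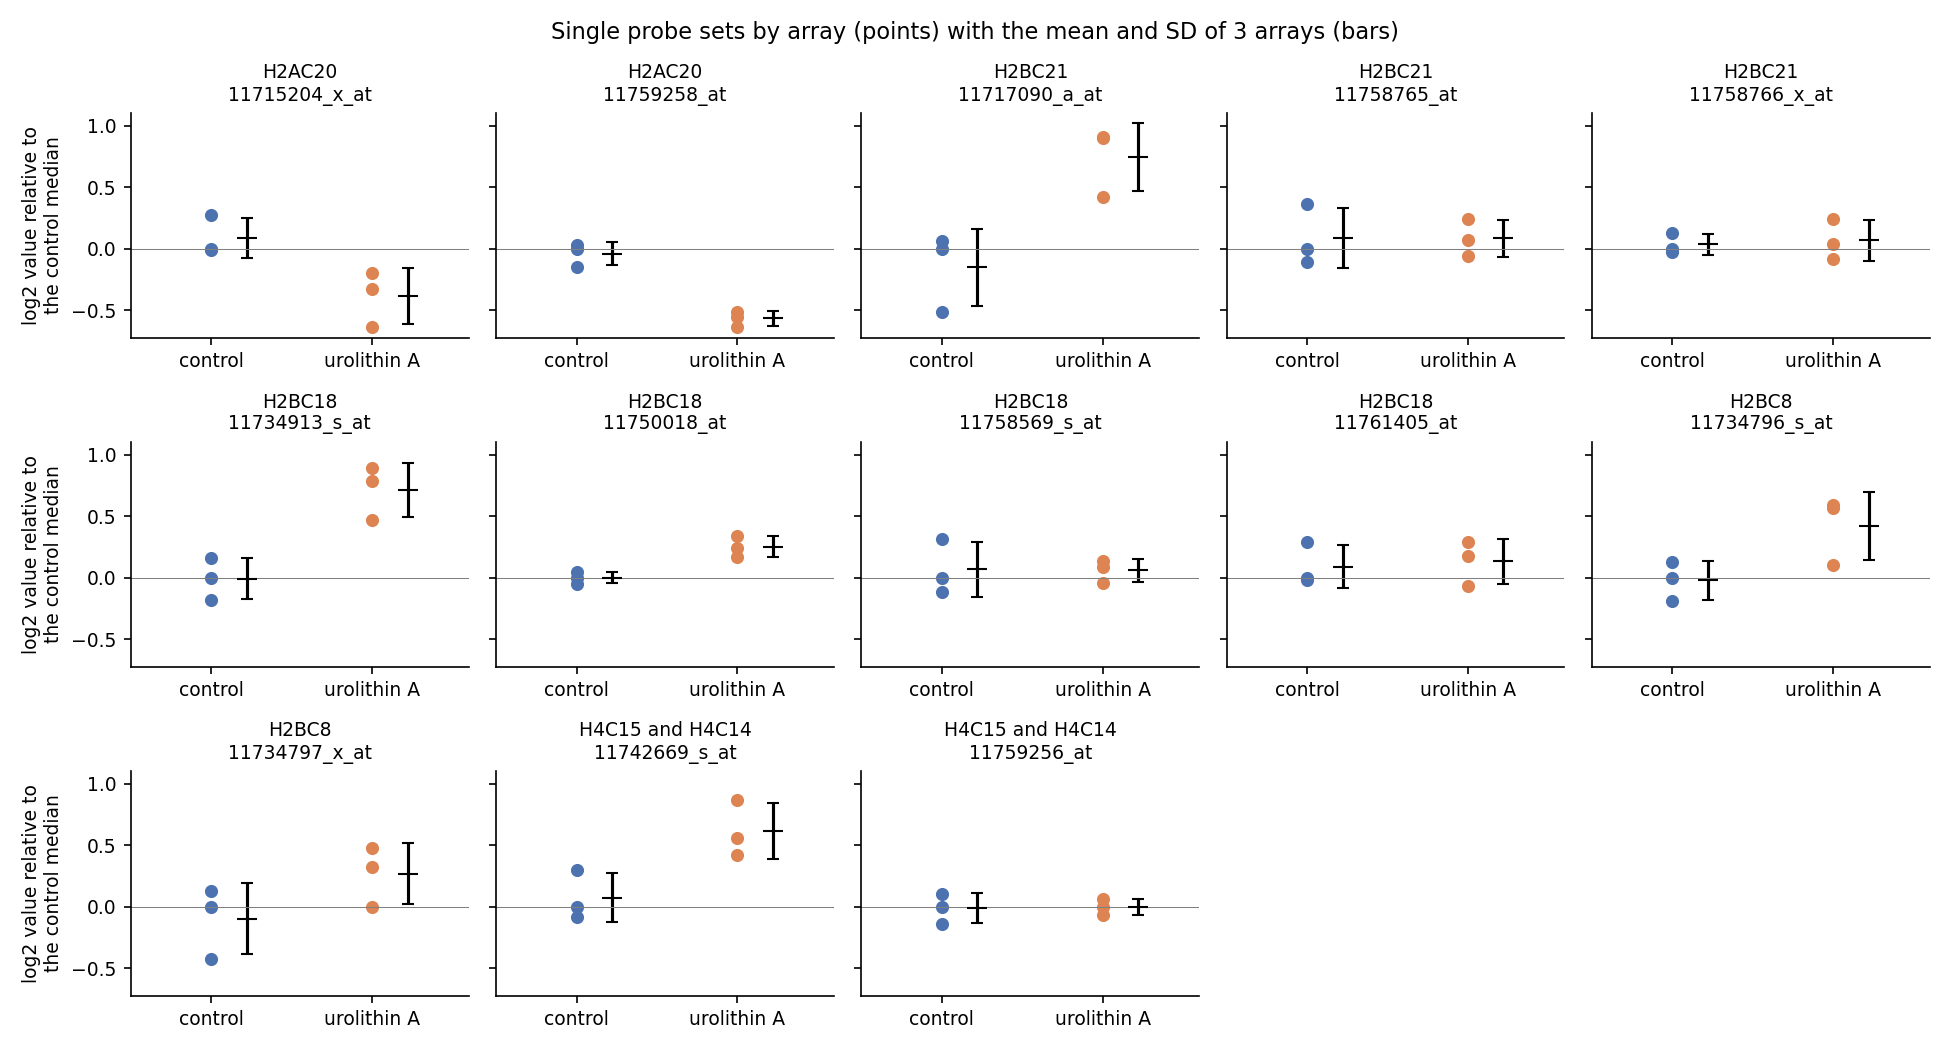
Single probe sets of H2AC20, H2BC21, H2BC18, H2BC8 and the H4C14 and H4C15 pair, one panel each, as log2 values relative to the control median (y axis) by group (x axis); points are arrays, bars the mean and SD of 3. One probe set of H2BC21 rises clear of its controls while the other 2 stay level, and those of H2BC18 change by 0.72, 0.25, 0.04 and -0.008.

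Disagreement between a gene's probe sets was also common elsewhere on the array. Among 33 protein-coding histone genes with more than 1 probe set, the median distance between the highest and the lowest change of a gene's probe sets was 0.188, against 0.233 for 11822 such genes in all. The probe sets of 14 of the 33 genes (42.4%) had opposite signs, against 54.9% over all such genes. The widest distances after H2BC21 (0.90) were those of H2AC11 (0.82), H2BC18 (0.73), H2AC15 (0.58) and H2BC12 (0.44). The probe sets of H2AC11 stood at -0.16 and 0.66.

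The 8 probe sets annotated to several histone genes covered H2AC18 with H2AC19, H3C13 to H3C15, H4C11 with H4C12 and H4C14 with H4C15. None passed, and their changes ran from -0.18 to 0.54 with a median of 0.0064. The highest was a probe set of H4C14 and H4C15. It read 0.00, 0.30 and -0.08 in the controls and 0.56, 0.86 and 0.42 with urolithin A, so the groups were apart, and it missed the threshold (0.54, SE 0.14, adjusted p = 0.051, limma). The second probe set of the same gene pair changed by 0.008. Probes of copies this alike cannot tell which gene's mRNA they bound.

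H2A and H2B genes that share a promoter region were compared with each other. The RefSeq start sites placed 11 H2A/H2B pairs head to head, with 193 to 247 bases between the starts. In 6 of the 11 pairs the partners' changes had opposite signs, and in 5 the same sign. Of these genes only H2AC20 passed, and several changes were small beside their SE, as in H2AC17 (-0.04, SE 0.12). The probe sets of H2AC11 and of H2AC15 disagreed in sign. The counts of signs are therefore a weak description. H2BC21 and H2AC20 differed most, by 0.81 over 235 bases. H2BC21 minus H2AC20 was 0.11, -0.11 and -0.10 in the control arrays and 0.67, 0.72 and 0.94 with urolithin A. All treated differences lay above all control differences; the pair is shown because it differed most of the 11, so these values are a description with no test.

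The H2BC11 and H2AC11 pair differed by 0.47 in the same way round as H2BC4 and H2AC6 (0.46), with the H2A partner the higher. H2BC4 read 0.05, 0.10 and -0.47 in the controls and -0.12, -0.25 and -0.77 with urolithin A, a change of -0.27 (adjusted p = 0.453, limma), beside the 0.19 of H2AC6. H2BC8 and H2AC8 were both above 0, at 0.41 and 0.23. H2BC14 and H2AC14 were both below 0, at -0.32 and -0.23.

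**Figure D4:**
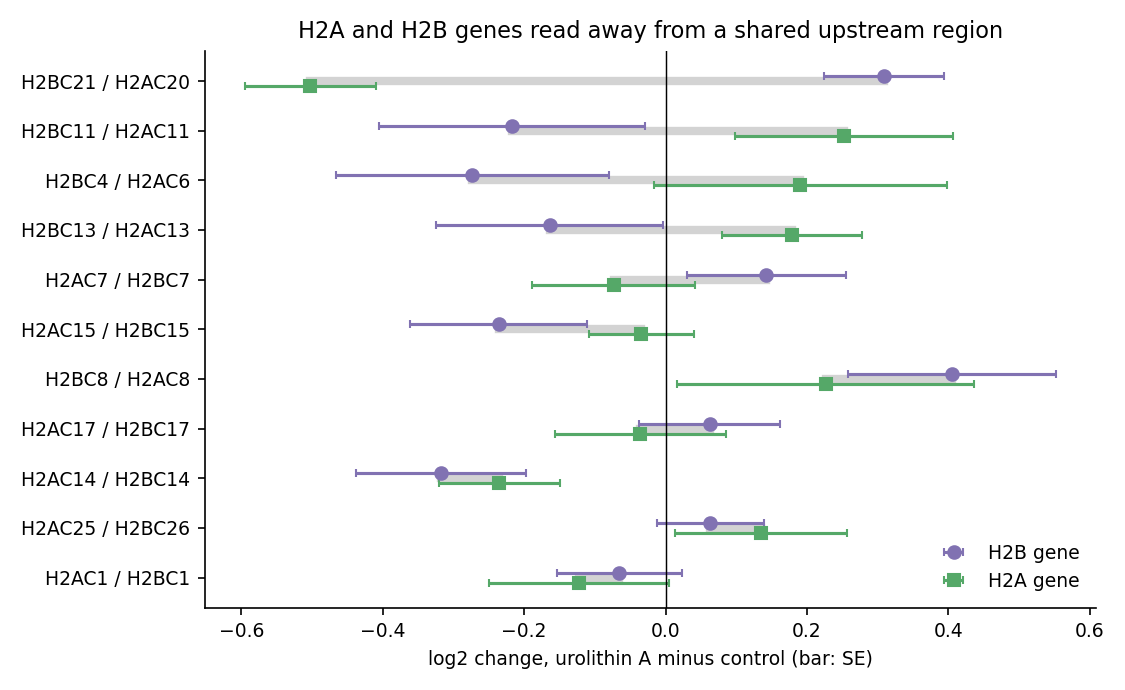
Changes of the H2B gene (circles) and the H2A gene (squares) in each of the 11 head-to-head pairs, urolithin A minus control on the log2 scale, with SE bars and a grey band joining the partners. H2BC21 and H2AC20, in the top line, lie farthest apart, at 0.31 and -0.50.

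The promoter letters were counted on both strands of RefSeq windows reaching from 250 bases before to 50 after each start. Windows were found for 59 of the 64 protein-coding genes (64 windows). The octamer ATTTGCAT lay in 42.2% of them and in 1.77% of all 35116 windows. It was in 15 of 20 H2B windows and 11 of 14 H2A windows, in 1 of 10 H3 windows and in none of the 10 H1 or 10 H4 windows. The windows of a head-to-head pair overlap, so one octamer can count for both partners.

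TATAAA lay in 62.5% of the histone windows and 11.5% of all, and CCAAT in 85.9% and 34.6%. CCAAT was in 3 of the 10 H4 windows. The 14 H2B genes with an octamer in the window had a median change of 0.04 and ran from -0.32 to 0.41, while the 4 without one (H2BC5, H2BC13, H2BC15 and H2BC26) had a median of -0.05 and ran from -0.24 to 0.33. The ranges overlap widely, and the difference was not tested. The stretch before H2BC18 held 1 octamer, 1 CCAAT and no TATAAA.

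The genes on chromosome 6, where most histone genes lie, had a median change of 0.0002 (49 genes with a window, -0.32 to 0.41). The 6 on chromosome 1 ran from -0.50 to 0.31 with a median of 0.10, and 3 of those 6 stood apart between the groups, against 4 of the 49. The 5 genes without a window are in neither count, among them H4C1 and H4C3, in which the groups stood apart. Over all genes the groups stood apart in 29.3%. No test of the difference between the chromosomes was made.

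The third array of each group was low in many histone genes. In 20 of the 64 protein-coding genes (31.2%) it was the lowest array of both groups, against 14% of all genes. The array medians over these 64 genes were 0.00, 0.02 and 0.00 in the controls and -0.04, 0.02 and -0.07 with urolithin A. The third array was also the lowest of each group in ribosomal RNA. The 18S control probe sets read 0.05, 0.01 and -0.45 in the controls and 0.03, -0.22 and -0.48 with urolithin A, and those of 28S read 0.15, -0.02 and -0.25 against -0.10, -0.13 and -0.42. The part of these array differences in the histone values was not tested, apart from a fit without the third array of both groups, in which H2BC8 passed (adjusted p = 0.0473, limma).

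Factors listed for making, cutting and degrading histone mRNA, some of them general, such as FIP1L1 and ELL2, changed in both directions. The shares over all genes were 4.85% higher and 5.31% lower past the threshold. Of 31 such factors measured of a list of 32, 2 rose and 5 fell, 24 did not pass, and the median was -0.087. With the arrays scaled to the hybridization controls, none of these rose and 3 fell, and with no moderation of the variance 2 rose and none fell. Without the third urolithin A array 2 fell, and 3 fell without control 1, control 2 or the first urolithin A array. SLBP, the stem-loop binding protein, read 0.00, 0.05 and -0.17 in the controls and -0.38, -0.30 and -0.57 with urolithin A. All treated arrays lay below all control arrays, and SLBP fell by 0.38 (SE 0.092, adjusted p = 0.0366, limma), although 4 of the 6 fits without 1 array lost the call (adjusted p up to 0.120). CDK2 fell by 0.58 (adjusted p = 0.0036, limma), with treated arrays at -0.61, -0.48 and -0.62.

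CCNE2, a cyclin E that partners CDK2, fell by 0.73 (adjusted p = 0.0278, limma), and 4 of the 6 fits without 1 array lost it (adjusted p up to 0.0945). CCNE1, the other cyclin E, did not pass at 0.16, with every treated array above every control array (adjusted p = 0.218, limma). NPAT itself did not pass, at -0.04 (adjusted p = 0.881, limma). HINFP, the zinc finger factor of H4 promoters, rose by 0.36 (SE 0.061, adjusted p = 0.0092, limma), while the H4 genes had a median of -0.0038. ELL2, an elongation factor, fell by 1.08 (adjusted p = 0.0014, limma). Its 5 probe sets ran from -1.51 to -0.02, with 4 past the threshold.

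FIP1L1, a subunit of the polyadenylation machinery, rose by 0.47 (adjusted p = 0.0099, limma), but by 0.16 with no call when shared-sequence probe sets were left out (adjusted p = 0.192). TUT7, a uridylyltransferase that tags histone mRNA for decay, fell by 0.39 (adjusted p = 0.0455, limma). In 5 of the 6 fits without 1 array it did not pass (adjusted p up to 0.137). TUT4, a related uridylyltransferase, was at 0.28 with the groups apart and did not pass (adjusted p = 0.127, limma). Among the subunits specific to histone pre-mRNA processing, ZNF473 was at -0.29 (adjusted p = 0.0595, limma).

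**Figure D5:**
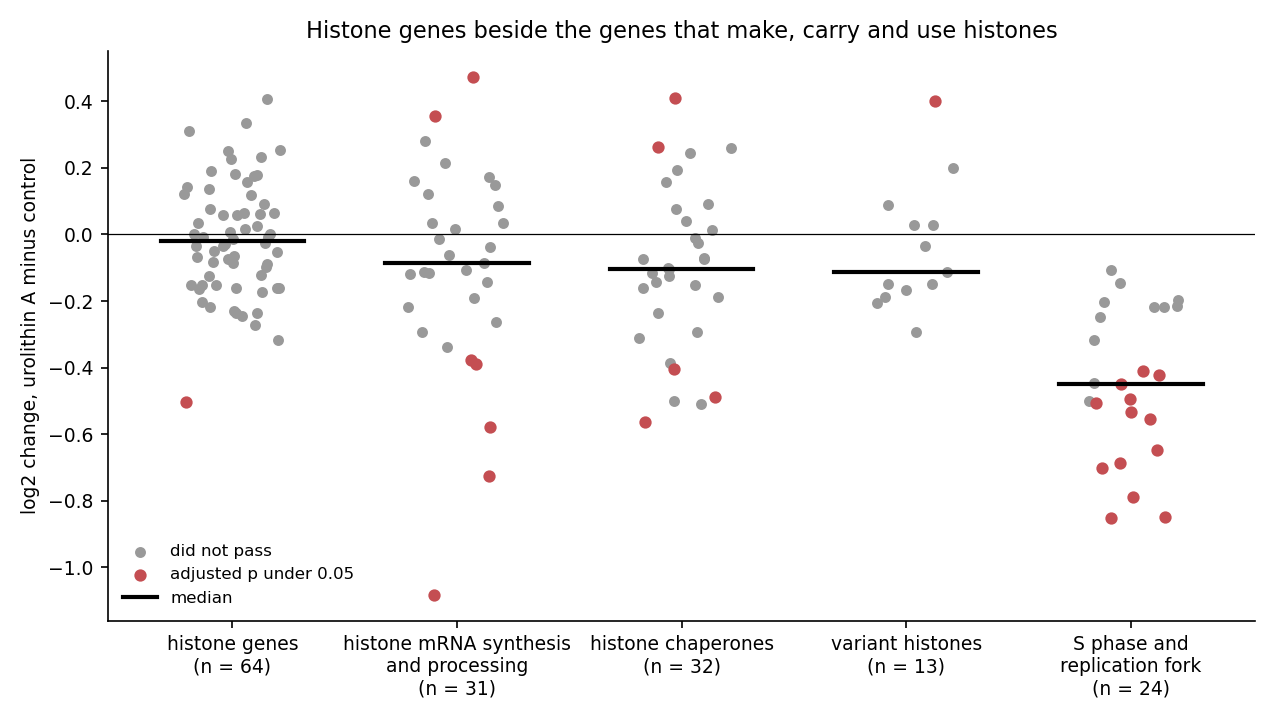
Change of every measured gene (points, log2 scale, urolithin A minus control) among the 64 protein-coding histone genes and 4 related lists, with black lines at the medians and genes past the threshold in red. The 24 S phase genes all lie below 0 with a median of -0.45, and the histone genes lie on both sides of 0 with a median of -0.019.

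Histone chaperones, importers and assembly factors gave 2 higher, 3 lower and 27 not passed of 32, with a median of -0.10. Among all genes 4.85% passed higher and 5.31% lower. The counts of the list were 0 higher with 1 lower under the scaling to hybridization controls. With no moderation of the variance they were 0 in either direction. RBBP4, a histone-binding subunit of several chromatin complexes, rose by 0.41 (adjusted p = 0.0116, limma), and NAP1L1, an H2A-H2B chaperone, by 0.26 (adjusted p = 0.0453, limma). MMS22L, which acts at damaged forks, fell by 0.56 (adjusted p = 0.0122, limma), and ANP32E, a chaperone of H2A.Z, by 0.49 (adjusted p = 0.0114, limma). CHAF1A, the large subunit of the factor that loads H3-H4 on new DNA, fell by 0.40 (adjusted p = 0.043, limma). Without 1 array, NAP1L1 was lost in all 6 fits (adjusted p up to 0.132) and CHAF1A in 5 of 6 (adjusted p up to 0.132). RBBP4 had 2 probe sets, at 0.08 and 0.74, of which 1 passed. Leaving out shared-sequence probe sets kept only the higher of these, at 0.74, and raised NAP1L1 to 0.51. The 5 probe sets of ANP32E ran from -0.80 to 0.15, with 3 past the threshold.

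Of 24 replication-independent and other variant histone genes, 13 were measured by a probe set of their own. Of the 13, 1 passed, against 10.2% of all genes. H3-3B, which codes for the replacement histone H3.3, read 0.04, -0.14 and 0.00 in the controls and 0.44, 0.27 and 0.41 with urolithin A. It rose by 0.40 (SE 0.079, adjusted p = 0.0155, limma), with 1 of its 4 probe sets past the threshold and changes from 0.09 to 1.14. All 4 are marked as sharing sequence, so H3-3B had no value when such probe sets were left out. As the median of its probe sets the change was 0.19 and did not pass (adjusted p = 0.148, limma). The call was also lost with hybridization control scaling (adjusted p = 0.140), with no moderation of the variance (adjusted p = 0.0891) and in 2 of the 6 fits without 1 array (adjusted p up to 0.0558). H2AX was at -0.21, H2AZ1 at -0.19 and CENPA at -0.29, none past the threshold. Of 12 histone genes known for polyadenylated transcripts, 9 were measured, all of them among the 64 protein-coding genes. None passed, 7 were above 0 and 2 below, and the median was 0.18. Over all genes 9677 of 18239 were above 0, with a median of 0.010. The median standard error of the 9 genes was 0.147, against 0.0812 over all genes. For 4 of the 9 the interval lay within a 1.5-fold change.

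Genes of DNA replication, which like the histone genes are most active in S phase, were read in the same fit. Of 24 genes of the replication fork and S phase, 13 fell, none rose and 11 did not pass, all 24 were below 0, and the median was -0.45. Among all genes 5.31% fell and 4.85% rose past the threshold. The count of 13 became 1 with no moderation of the variance, 7 with the arrays scaled to the hybridization controls and 8 without control 2. CDC45, of the replicative helicase, and POLE2, a subunit of DNA polymerase epsilon, each fell by 0.85 (adjusted p = 0.001 and 0.0016, limma). GINS2 fell by 0.79 (adjusted p = 0.0048, limma) and GINS1 by 0.65 (adjusted p = 0.0086, limma), both of the same helicase. CDKN1A, which codes for the CDK inhibitor p21, rose by 1.38, or 2.60-fold (adjusted p = 0.0003, limma). The median of the 64 histone genes was -0.019 in the same fit, and the difference between the lists was not tested. MCM2 is in both this list and that of the chaperones.

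Of the luminal prostate markers, KLK3 fell by 0.98, KLK2 fell by 2.07 and FOLH1 rose by 0.31, with 3 of 6 measured not passed. None of 2 basal, 5 fibroblast, 4 leukocyte and 3 endothelial markers measured passed.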

How the data were processed

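RNA of 6 arrays (3 control, 3 urolithin A) was read on an Affymetrix U219 array. The submitters' processing notes name RMA for the deposited log2 values; the log base is not stated and was taken as 2. In all 49386 probe sets the control median was exactly 0, so each probe set had been centred before deposit, and no filter on dim probes was possible. The array annotation gave 1 symbol to 45253 probe sets, several to 1327 and none to 2713, and 93 were controls. All 67 histone symbols matched RefSeq. limma 3.58.1 (R 4.3.3) was run, with moderated variances, on each gene as the mean of their single-symbol probe sets, and probe sets in a separate fit.

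The members and lists were chosen with earlier results of these data known. Named were the histone genes and shared probe sets that passed, the 4 largest changes that did not pass, and CDK2 and CDKN1A. List members that passed were also named (if more than 6, the 4 with the smallest p in each direction). Of the members whose probe sets disagreed in sign, some were named and others were not. TUT7 and the other genes were named after their values were seen. In all, 18 alternatives were tried. One, without the third array of both groups, was chosen after seeing the data. The number of arrays limits the precision.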

Additional observations from a re-analysis of the deposited data

How the results depend on the processing

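H2AC20 kept its direction under all 17 settings in which it was fitted (-0.55 to -0.42). Counts for the 64 protein-coding genes moved as follows. No gene was higher in the main fit; 2 were with the replicate block (H2BC8, adjusted p = 0.0153, and H2BC5, adjusted p = 0.0441, limma), 2 with each probe set tested alone, 1 without shared-sequence probe sets (H2BC21), 1 without the third array of both groups, and 0 to 1 without single arrays. The 1 lower gene became 0 with the arrays scaled to hybridization controls, at an adjusted p under 0.01 and with a 1.5-fold minimum; with no moderation it was H4C1 in place of H2AC20. The median of -0.019 was -0.036 without shared-sequence probe sets, -0.029 with median-centred arrays, 0.015 with hybridization control scaling (which moved the median of all genes by 0.034), 0.0062 without array 3 of both groups, -0.0085 over single probe sets, and -0.042 to 0.012 without single arrays. The 3 probe sets that passed became 6 with the replicate block, 5 with hybridization control scaling, 0 with no moderation and 1 at an adjusted p under 0.01, and up to 7 without the third urolithin A array, with 3 as the lowest. Of the shared probe sets, 1 passed with the replicate block, 1 with hybridization control scaling, and 0 to 1 without single arrays. The cause was not tested, except where a stricter threshold or fewer samples sets it. Replicate numbers were not taken as pairs: deviations of same-numbered arrays correlated by 0.08, 0.02 and 0.20 over all genes, though by 0.25, 0.56 and 0.45 over the 64 histone genes, and over all genes control 2 correlated best with urolithin A 1. With the replicate block 1863 genes passed, against 1854. The chaperone counts moved to 1 higher and 6 lower with it.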
